A study of Mus musculus with 10 samples.

Results

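Expression of 8 enzymes of amino acid and inositol metabolism was followed in proximal tubule cells of the mouse kidney cortex after injury. The genes were Gatm, Ass1, Miox, Inmt, Hao2, Agxt2, Prodh2 and Arg2, and all 8 were found among the 28808 gene symbols of the deposited tables. They were taken by name from a list and were read in proximal convoluted and proximal straight barcodes. A barcode was placed in a segment from raw counts of unique molecular identifiers (UMIs) of transporter genes, none of which is one of the 8. Another 5683 proximal barcodes could not be given a segment. Cells that had lost most of these transporter transcripts may fall outside the gates, so the values of the injured days describe cells that kept some. The gates held 10264 convoluted and 9441 straight barcodes of the 52797 kept after filtering and the 64803 deposited.

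The material was kidney cortex of mice aged 4 weeks, prepared as single-cell suspensions and sequenced by Drop-seq, in which each cell is captured in a droplet with a barcoded bead. There was 1 library of normal kidneys, here called control, and 1 library each of days 1, 2 and 4 after injury. Days 7, 11 and 14 had 2 libraries each. The labels give neither the kind of injury nor the strain, sex or any genotype, and they do not say whether the 2 libraries of a day came from different animals, so the spread between them may be technical.

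The proximal tubule takes back filtered amino acids and metabolises many of them. Gatm transfers the amidino group of arginine to glycine, the first step of creatine synthesis, and Ass1 makes argininosuccinate from citrulline in the kidney's synthesis of arginine. Arg2 is the mitochondrial arginase, which splits arginine into ornithine and urea. Miox opens the ring of myo-inositol and so starts its breakdown by way of glucuronate. Prodh2 oxidises hydroxyproline, a route that leads to glyoxylate, and Agxt2 is a mitochondrial aminotransferase that can use glyoxylate. Hao2 is a peroxisomal oxidase of longer 2-hydroxy acids, and Inmt transfers methyl groups to indolethylamine and related amines.

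Promoter windows are shown first because HNF1 and HNF4 are factors known for genes of the proximal tubule, and because the 8 genes did not all move alike. RefSeq (GRCm38.p6) gave windows of 250 bases before to 50 bases after the start of 7 of the 8 genes, and Arg2 was not matched. Agxt2 had a second window, which is not shown. The letters searched on both strands were GTTAAT (the short HNF1 motif), the full HNF1 site that joins a pair of such motifs head to head, CAAAGTCCA (an HNF4 core), TATAAA and CCAAT, and capitals mark every match. The 4 windows below are those with a short HNF1 motif or an HNF4 core. They lie at chr15:89334223-89334522 (Miox, plus strand), chr3:98893181-98893480 (Hao2, minus strand), chr7:30493408-30493707 (Prodh2, plus strand) and chr15:10358283-10358582 (Agxt2, plus strand), and each is written in the direction of its gene.
Miox: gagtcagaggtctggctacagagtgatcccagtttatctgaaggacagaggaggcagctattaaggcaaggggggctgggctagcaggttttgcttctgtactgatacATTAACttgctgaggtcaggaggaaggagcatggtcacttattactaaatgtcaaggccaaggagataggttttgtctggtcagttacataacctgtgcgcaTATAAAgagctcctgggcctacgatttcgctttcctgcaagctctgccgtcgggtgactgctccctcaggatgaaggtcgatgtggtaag
Hao2: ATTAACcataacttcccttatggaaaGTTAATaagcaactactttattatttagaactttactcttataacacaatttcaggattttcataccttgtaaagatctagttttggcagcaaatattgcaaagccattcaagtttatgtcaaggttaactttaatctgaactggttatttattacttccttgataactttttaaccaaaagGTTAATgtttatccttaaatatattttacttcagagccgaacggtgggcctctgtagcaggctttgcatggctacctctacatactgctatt
Prodh2: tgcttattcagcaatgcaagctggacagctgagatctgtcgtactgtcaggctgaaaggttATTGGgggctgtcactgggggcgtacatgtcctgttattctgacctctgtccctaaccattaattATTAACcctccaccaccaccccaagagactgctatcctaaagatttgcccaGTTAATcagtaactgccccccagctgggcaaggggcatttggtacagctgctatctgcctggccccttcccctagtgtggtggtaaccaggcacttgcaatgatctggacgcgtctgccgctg
Agxt2: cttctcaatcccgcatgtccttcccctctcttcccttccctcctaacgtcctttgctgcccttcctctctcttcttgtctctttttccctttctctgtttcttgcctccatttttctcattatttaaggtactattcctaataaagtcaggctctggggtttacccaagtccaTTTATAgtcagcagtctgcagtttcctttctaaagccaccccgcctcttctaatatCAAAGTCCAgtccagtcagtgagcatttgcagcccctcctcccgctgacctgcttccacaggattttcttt
The short HNF1 motif was matched 1 time in the Miox window, 3 times in that of Hao2 and 2 times in that of Prodh2, and 7.10% of all 32851 promoter windows held it. The HNF4 core was matched in the Agxt2 window, against 0.475% of all windows. The full HNF1 site was in none of the 7 genes' windows and in 3 of all windows. TATAAA was matched in Miox, Inmt and Agxt2 (13.6% of all windows) and CCAAT in Gatm and Prodh2 (37.4%), and the Ass1 window held none of the 5. Of the 5 genes that fell in convoluted barcodes by day 7, described further on, Miox held the short HNF1 motif, while Hao2 and Prodh2, which did not pass the test there, both did. A match describes letters in a window and is not a measured binding site.

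In GENCODE M21 on GRCm38 all 8 are protein-coding genes. Gatm lies at chr2:122594467-122611303, Ass1 at chr2:31470207-31520672, Miox at chr15:89334398-89337015 and Inmt at chr6:55170626-55175043. Hao2 lies at chr3:98874521-98893239, Agxt2 at chr15:10358532-10410153, Prodh2 at chr7:30493622-30513402 and Arg2 at chr12:79130777-79156301.

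Levels are given in CPM, the UMIs of a gene scaled to the same total of gated UMIs in every library. The sums held 882009 to 7568141 UMIs in convoluted and 155262 to 8234150 in straight barcodes. Straight barcodes were few on day 1 (54), day 2 (29) and day 7 (67 and 193), so their low counts there are imprecise. The alternative called thinning drew 500 UMIs from each barcode and gated it again. That left 12500 and 38000 UMIs in the straight day 7 sums and 88000 and 78000 in the convoluted ones. Such sums hold few UMIs of a low gene, so a call lost after thinning says little for genes at low levels. Groups were compared with edgeR's quasi-likelihood test on the sums with TMM scaling and Benjamini-Hochberg adjustment over all genes tested, 12427 in convoluted and 13305 in straight barcodes, at an adjusted p of 0.05. Log2 changes are given ± SE, worked back from the test as the absolute change divided by the square root of its F value. For genes with very few UMIs in a group this SE can understate the spread between libraries. The control has 1 library and is assumed in the fit to vary like the replicated days, and days 1, 2 and 4 are given as values without a test. Scaling by gate totals in place of TMM moved the median log2 change of all genes on day 7 against control from 0.10 to 0.82 in convoluted and from 0.07 to 0.98 in straight barcodes. The share of called genes that were higher went with it from 47.1% to 86.1% and from 51.3% to 88.7%. On day 11 against day 7 it went from 52.8% to 17.5% and from 50.1% to 14.5%, and on day 14 against control from 39.6% to 59.6% and from 40.9% to 66.9%. CPM are not TMM-scaled, so a gene can be near control in CPM on day 7 and lower after scaling.

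Single genes gave much of the gate counts in some libraries. Of the gate list's UMIs, Slc4a4 gave 55.5% in the convoluted control and 50.7% and 57.2% on day 7. Atp11a gave 24.1% in the straight control and 56.2% and 29.2% on day 7, so the first straight day 7 sum rested mostly on that gene. The gated barcodes carried proximal genes that the gate did not use, at a straight sum of 9239 CPM in the control and 1594 and 4379 CPM on day 7. Among these, Lrp2, Cubn, Slc34a1, Slc27a2 and Fbp1 each fell on day 7 against control by edgeR, with log2 changes from -2.73 (Lrp2) to -1.45 (Cubn) in convoluted and from -3.09 (Lrp2) to -1.97 (Cubn) in straight barcodes. Several other measures moved with the days. A list of 5 injured tubule genes, all called higher on day 7 in both segments, summed to 113 CPM in the convoluted control, to 12273 and 16729 CPM on day 7 and to 166 and 183 CPM on day 14. Of 4 macrophage markers 3 were called higher in convoluted barcodes on day 7, and their sum went from 2.74 CPM in the control to 124 and 33.5 CPM on day 7. Of 4 red cell genes 3 were called higher there, and their sum was at 13.2 CPM in the convoluted control, at 1119 and 17.6 CPM on day 7 and at 799 and 600.5 CPM on day 11. In straight barcodes the red cell sum was 23.8 CPM in the control, 483 and 14.1 on day 7 and 2801 and 902 on day 11. The median mitochondrial share of a convoluted barcode was 22.0% in the control, 4.70% and 6.39% on day 7 and 17.3% and 19.8% on day 14. In straight barcodes the injured tubule list was at 30.6 CPM in the control and 16687 and 14098 CPM on day 7. The straight macrophage sum was 13.3 CPM in the control and 95.6 and 34.8 CPM on day 7, and the median mitochondrial share was 23.4%, then 2.90% and 5.74%. Podocyte markers in convoluted barcodes summed to 6.84 CPM in the control, 29.5 and 13.8 on day 7, 27.3 and 36.2 on day 11, then 5.91 and 6.10 on day 14. Endothelial markers in straight barcodes summed to 4.79 CPM in the control, 13.7 and 15.1 on day 7 and 29.6 in both day 11 libraries. These values stand beside every day 7 and day 11 result below, and their part in those results was not tested. No pair of libraries shared more than 4 barcodes. Both day 11 libraries stood apart as deposited, with 10800 and 10711 barcodes from 300 genes up, where the other 8 began at 500 genes. The same 500-gene minimum was applied to all, and the part of this difference in the day 11 levels was not tested.

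**Figure D1:**
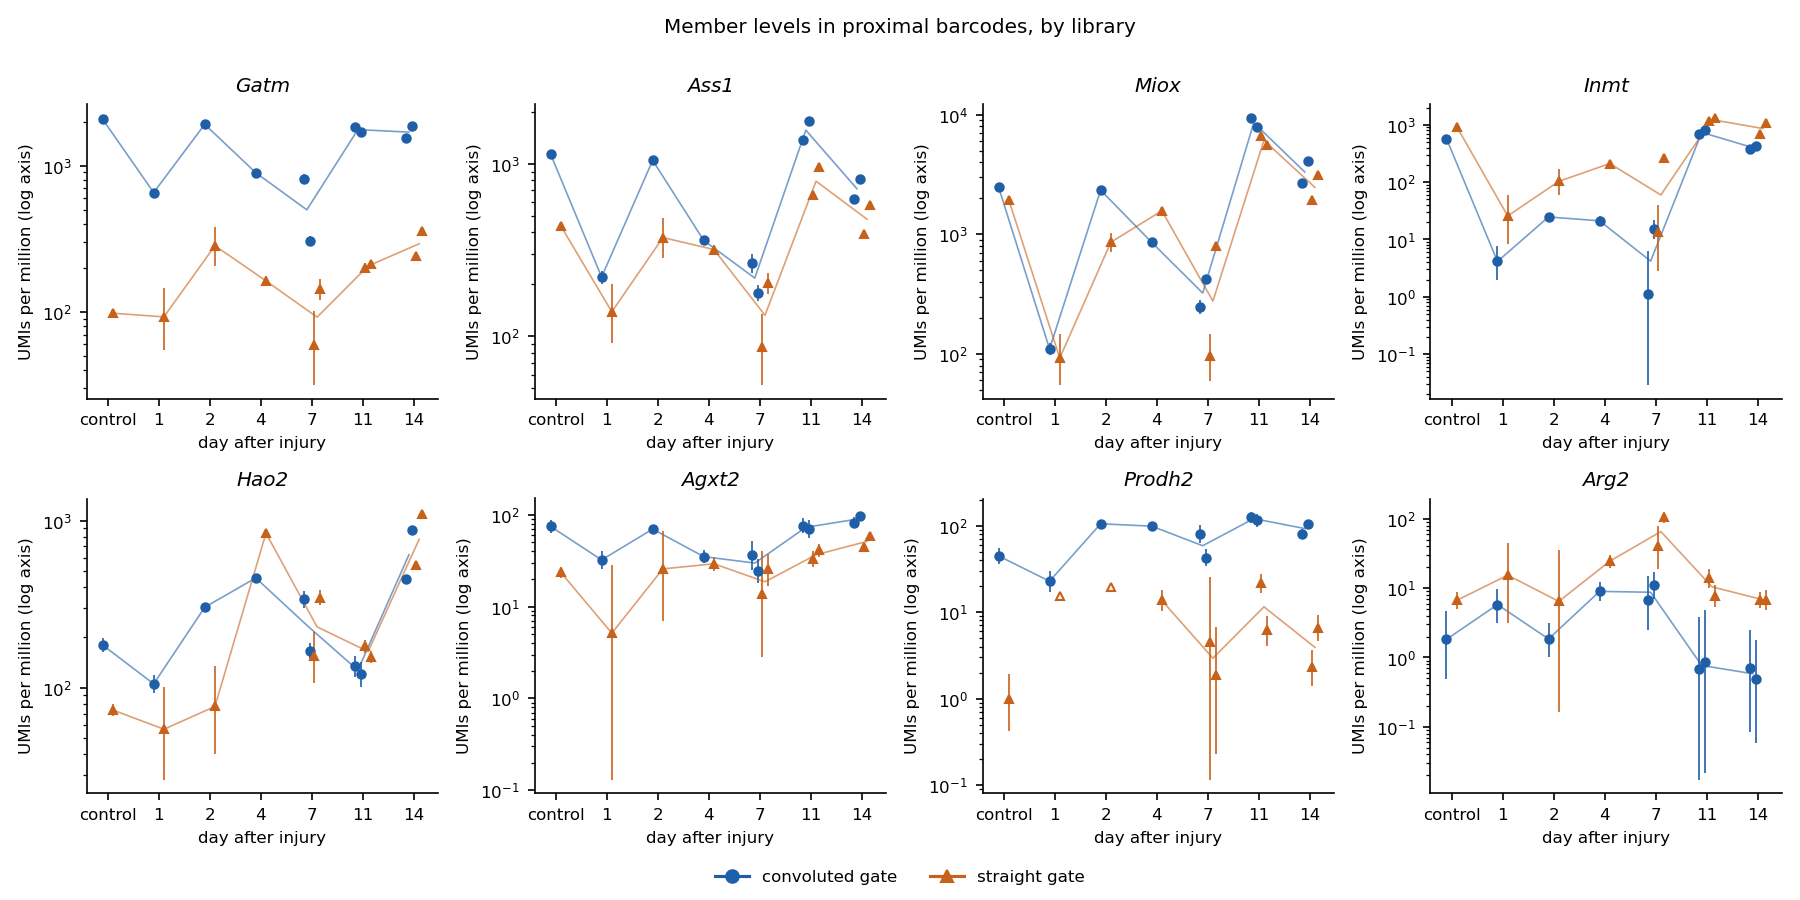
Levels of the 8 genes in CPM (log axis) by day, with 1 point per library for convoluted (circles) and straight (triangles) barcodes. Bars are exact Poisson 95% intervals, open symbols mark a count of 0 drawn at the level of 3 counts, and lines join the geometric means of groups with no such library. Inmt in convoluted barcodes spans 1.13 to 797 CPM, and Hao2 is highest in both segments in the second library of day 14.

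Gatm, the creatine synthesis enzyme, fell in convoluted barcodes by day 7 and was back by day 11. Its convoluted level was 2078 CPM in the control and 655 on day 1, 1918 on day 2 and 895 on day 4. It was 815 and 306 CPM on day 7, 1838 and 1693 on day 11, then 1542 and 1866 on day 14. Both day 7 libraries lay below the control and below every library of days 11 and 14. The log2 change was -2.62 ± 0.37 on day 7 against control (edgeR adjusted p = 0.000137) and 2.30 ± 0.33 on day 11 against day 7 (adjusted p = 0.000106). Without the first day 7 library these were -3.49 and 3.16, and after thinning to 500 UMIs -1.61 and 1.23, all of which passed. Day 14 against control gave -0.42 ± 0.38 (adjusted p = 0.591).

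Straight barcodes held Gatm at about the level seen in endothelial barcodes up to day 11, and the part of free RNA in these values was not tested. Endothelial Gatm was at 156 CPM in the control, 137 and 52.4 on day 7, 215 and 141 on day 11, then 122 and 178 on day 14. The straight level was 98.0 CPM in the control, 59.2 and 143 on day 7, 201 and 211 on day 11, then 240.0 and 356 on day 14. The day 7 libraries lay on both sides of the control, and the log2 change was -0.68 ± 0.38 (edgeR adjusted p = 0.186). Without the second day 7 library it was -1.65. The change passed the test at -1.44 with no barcode left out for other markers, at -1.496 after thinning and at -1.10 with gates lacking Slc4a4 and Atp11a. With gate totals it changed sign, to 0.24. Gatm rose from day 7 to day 11 by 1.63 ± 0.33 on the log2 scale (edgeR adjusted p = 0.00175), and by 2.59 without the second day 7 library. With gate totals the rise was 0.84, and after thinning every barcode to 500 UMIs it was 0.75 and did not pass (adjusted p = 0.387). All 4 libraries of days 11 and 14 were above the control, and Gatm stood above the control on day 14 by 1.43 ± 0.38 (edgeR adjusted p = 0.0330). That call was lost without the first day 11 library (adjusted p = 0.0685), without the second day 14 library (1.16, adjusted p = 0.165) with DESeq2 (1.45, adjusted p = 0.0917) and with gates lacking Slc4a4 and Atp11a (0.92, adjusted p = 0.0706), and the change was -0.09 when every barcode was thinned to 500 UMIs before gating.

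Ass1, the argininosuccinate synthase, fell on day 7 and rose by day 11 in both segments. In convoluted barcodes it was at 1137 CPM in the control and 221 on day 1, 1047 on day 2 and 359.5 on day 4. It was at 265 and 178 CPM on day 7, 1379.8 and 1778 on day 11, then 628 and 819 on day 14. Day 11 was the highest of the days in both of its libraries, and both day 14 libraries were under the control. The log2 change was -3.09 ± 0.27 on day 7 against control and 3.47 ± 0.25 on day 11 against day 7 (edgeR adjusted p = 2.17e-06 and 2.99e-07), and the first was -1.86 after thinning. From day 11 to day 14 Ass1 fell by 1.15 ± 0.22 (edgeR adjusted p = 0.00879), a call lost without the second day 11 library (-1.01, adjusted p = 0.154) or the first day 14 library (-0.97, adjusted p = 0.143). In straight barcodes it was at 437 CPM in the control, 86.5 and 202 on day 7, 656 and 958 on day 11, then 394 and 577 on day 14. The straight changes were -2.37 ± 0.42 on day 7 against control and 3.13 ± 0.38 on day 11 against day 7 (edgeR adjusted p = 0.000645 and 4.26e-05), or -3.26 and 4.02 without the second day 7 library, and the first was -1.45 with gate totals.

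Counts of Ass1 are uncertain to the extent that reads are shared with Gm5424, a processed pseudogene on chromosome 10. The GENCODE M21 transcripts of the pair were 99.5% identical over 1240 aligned bases. Gm5424 held 15.9% to 19.5% of the UMIs of both genes in the 4 sums of day 11 and 23.6% to 33.1% in the others, except 13.6% (3 UMIs) in the straight sum of the first day 7 library. The split thus moved with day 11, where Ass1 was highest, and its part in that level was not tested. Its log2 change in convoluted barcodes was -2.92 ± 0.36 on day 7 against control and 2.64 ± 0.32 on day 11 against day 7, so the pair moved in the same direction in both tests (edgeR adjusted p = 3.84e-05 and 2.50e-05).

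Arg2, the mitochondrial arginase, went the other way, at low levels. In straight barcodes it was at 6.64 CPM in the control, 24.5 on day 4, and 41.0 and 105 on day 7. Day 11 had 43 and 33 UMIs, a mean of 10.9 ± 4.36 CPM (SD, n = 2), and day 14 was at 6.80 and 6.79 CPM. Day 7 was above all other days in both libraries. Arg2 rose by 2.77 ± 0.46 on day 7 against control and fell by 2.22 ± 0.38 on day 11 against day 7 on the log2 scale (edgeR adjusted p = 0.000385 and 0.000501). The second day 7 library gave 111 of the 120 day 7 UMIs, and without it the changes were 1.70 and -1.14 (adjusted p = 0.0745 and 0.193). After thinning they were 1.93 and -1.07 (adjusted p = 0.493 and 0.647), and neither passed, on day 7 sums of only 12500 and 38000 UMIs. Convoluted barcodes held 4 Arg2 UMIs in the control, 6 and 21 on day 7, and 1 in each day 11 library. Their change on day 7 against control was 1.63 ± 0.81 and did not pass the edgeR test, except with gate totals (2.35, adjusted p = 0.0293). Their change from day 7 to day 11 passed the test (edgeR adjusted p = 0.0187), and the 2 against 27 UMIs correspond to a level 8.28-fold lower, with a 95% counting interval of 2.08 to 71.9. That call was lost without the second day 7 library (adjusted p = 0.126), without the first or the second day 11 library (0.106 and 0.0854), with DESeq2 (0.137), with gates of 1 or 3 UMIs (0.174 and 0.0614) and with gates lacking Slc4a4 and Atp11a (0.369). The annotation places Gm48780 and part of Vti1b on the strand opposite Arg2, and the sources used here do not say whether counting used strand.

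Miox, which starts inositol breakdown, fell by day 7 and rose again by day 11. In convoluted barcodes it was at 2485 CPM in the control and 110.1 on day 1, 2334 on day 2 and 856 on day 4. It was at 247 and 421 CPM on day 7, 9306 and 7816 on day 11, then 2684 and 4073 on day 14. Both day 11 libraries were above the control and above both day 14 libraries, and they are the libraries deposited with a lower gene minimum. Miox fell by 3.61 ± 0.31 on day 7 against control and rose by 5.30 ± 0.31 from day 7 to day 11 on the log2 scale (edgeR adjusted p = 2.02e-06 and 4.82e-08), and the first change was -1.91 after thinning. It then fell by 1.38 ± 0.26 from day 11 to day 14 (edgeR adjusted p = 0.00703). This last call was lost without the first day 11 library (-1.20, adjusted p = 0.0912), the second day 11 library (-1.53, 0.0709) or the first day 14 library (-1.10, 0.110). The change of day 14 against control was 0.31 ± 0.31 (adjusted p = 0.631).

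In straight barcodes Miox was at 1945 CPM in the control and 92.5 on day 1 (18 UMIs), 857 on day 2 and 1569.9 on day 4. It was at 95.6 and 798 CPM on day 7, 6635 and 5570.2 on day 11, then 1944 and 3104 on day 14. Both day 7 libraries lay below the control and both day 11 libraries above it, with a wide gap between the day 7 libraries. The change was -2.91 ± 0.70 on day 7 against control and 4.43 ± 0.68 on day 11 against day 7 (edgeR adjusted p = 0.00550 and 0.000225). Without the first day 7 library these were -2.22 and 3.74, and without the second -5.27 and 6.79. The first of the pair was not called with DESeq2 (-2.93, adjusted p = 0.0716) or after thinning to 500 UMIs (-1.47, adjusted p = 0.0994).

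Inmt, the amine methyltransferase, had the largest fall among the 8 genes in convoluted barcodes and was still low on day 2, when Gatm, Ass1 and Miox were close to control. Its convoluted level was 576 CPM in the control and 4.14 on day 1, 24.7 on day 2 and 21.1 on day 4. Day 7 held 1 UMI in the first library and 29 in the second, 1.13 and 15.4 CPM. The level was 680.3 and 797 CPM on day 11, then 374 and 428 on day 14. The 4 libraries of days 11 and 14 were thus far above the 5 libraries of days 1 to 7. Inmt fell by 6.53 ± 0.44 on day 7 against control and rose by 6.79 ± 0.42 from day 7 to day 11 (edgeR adjusted p = 2.63e-07 and 7.86e-08). These were -5.94 and 6.20 without the first day 7 library, and -9.64 and 9.90 without the second, which leaves 1 UMI on day 7. Principal cell barcodes held 2.90 and 6.19 CPM of Inmt on day 7 (3 and 15 UMIs), so the convoluted level was at or near that of another cell type there and the sizes of these changes are not precise. From day 11 to day 14 the change was -0.91 ± 0.29 (adjusted p = 0.0932), which passed the test without either day 7 library (-0.91, adjusted p = 0.000638 and 0.000648).

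Straight barcodes kept more Inmt. The level was 932 CPM in the control and 25.7 on day 1, 103 on day 2 and 211 on day 4. It was 13.7 and 261 CPM on day 7, 1158 and 1311 on day 11, then 701 and 1054 on day 14. In all 10 libraries the straight level was above the convoluted one. The changes were -3.39 ± 0.65 on day 7 against control and 3.67 ± 0.60 on day 11 against day 7 (edgeR adjusted p = 0.00124 and 0.000386). Without the first day 7 library they were -2.77 and 3.04, without the second -7.01 and 7.29, and DESeq2 did not call the first (-3.55, adjusted p = 0.0974).

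Hao2, the 2-hydroxy acid oxidase, did not follow the others. In convoluted barcodes it was at 180.1 CPM in the control and 106 on day 1, 303 on day 2 and 454 on day 4. It was at 338 and 166 CPM on day 7, 134 and 121 on day 11, then 445 and 877 on day 14. The day 7 libraries lay on either side of the control, and day 11 was below it. The log2 changes were -0.26 ± 0.40 on day 7 against control and -0.33 ± 0.34 on day 11 against day 7, with edgeR adjusted p of 0.667 and 0.503. The second passed as lower with gate totals (-0.96, adjusted p = 0.0334) and after thinning (-1.01, adjusted p = 0.0426). From day 11 to day 14 Hao2 rose by 2.34 ± 0.34 (edgeR adjusted p = 0.00194), or by 1.74 without the second day 14 library. The call was lost without the second day 11 library (2.23, adjusted p = 0.0901). Above the control the rise on day 14 was 1.75 ± 0.43 (edgeR adjusted p = 0.0424). That call was lost without the second day 14 library (1.16, adjusted p = 0.269), without the first or second day 11 library (adjusted p = 0.0983 and 0.0984), with DESeq2 (1.74, adjusted p = 0.160), with a gate of 3 UMIs (adjusted p = 0.0636) and with gates lacking Slc4a4 and Atp11a (0.144).

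In straight barcodes Hao2 was at 73.6 CPM in the control and 56.5 on day 1, 77.3 on day 2 and 841 on day 4. It was at 155 and 346 CPM on day 7, 177 and 153 on day 11, then 543 and 1099 on day 14. Every library from day 4 on was above the control. The change on day 7 against control was 0.94 ± 0.47 (edgeR adjusted p = 0.142), and it was 1.30 and passed the test without the first day 7 library, and 0.15 without the second. It also passed with gate totals (1.87), no filter (0.90), a gate of 3 UMIs (1.19), thinning (1.95) and gates lacking Slc4a4 and Atp11a (1.42). Hao2 rose by 2.26 ± 0.38 from day 11 to day 14 and stood 3.30 ± 0.52 above the control on day 14 (edgeR adjusted p = 0.00227 and 0.00243). The straight call on day 14 against control was kept in all 18 alternative settings, with changes from 2.75 to 3.73.

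Agxt2 and Prodh2 act on the glyoxylate route. Agxt2 was at 74.8 CPM in the convoluted control, 36.3 and 24.5 on day 7, 76.4 and 69.9 on day 11, then 82.4 and 97.6 on day 14. Both day 7 libraries were under all libraries of the control and days 11 and 14. Agxt2 fell by 2.07 ± 0.30 on day 7 against control and rose by 1.95 ± 0.27 from day 7 to day 11 (edgeR adjusted p = 0.000138 and 6.15e-05). With gate totals the first was -1.35, and after thinning the second was 3.12. In straight barcodes it was at 23.6 CPM in the control, 13.7 and 25.4 on day 7 (3 and 27 UMIs), 32.9 and 41.0 on day 11, then 44.9 and 58.7 on day 14. The straight change was -0.94 ± 0.36 on day 7 against control (edgeR adjusted p = 0.0577). It passed with no filter (-0.99), a gate of 1 UMI (-1.24) or no exclusion by other markers (-1.66), and was -0.0401 with gate totals and -0.0161 after thinning. The change was 1.47 ± 0.32 on day 11 against day 7 (adjusted p = 0.00314) and 0.96 ± 0.27 on day 14 against control (adjusted p = 0.0408). The rise to day 11 was 2.24 without the second day 7 library and was lost with gate totals (0.69, adjusted p = 0.0928). It was also lost after thinning (0.0164, adjusted p = 0.994), where the day 7 sums of 12500 and 38000 UMIs are too small to test so low a gene. The day 14 call was lost without the first day 11 library, without the first day 14 library (1.15) and without the second (0.80), with adjusted p of 0.0562, 0.0503 and 0.236, with DESeq2 (0.98, adjusted p = 0.445), and after thinning (0.35, adjusted p = 0.808). A gate of 1 UMI and keeping barcodes with markers of other classes also lost it (adjusted p = 0.0576 and 0.0506). Agxt2 overlaps the gene Gm21973 on the same strand.

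Prodh2, the hydroxyproline oxidase, was lower in straight than in convoluted barcodes of every library. In convoluted ones it was at 44.7 CPM in the control and 22.8 on day 1, 105 on day 2 and 98.6 on day 4. It was at 80.5 and 42.6 CPM on day 7, 125 and 116 on day 11, then 81.0 and 106 on day 14. The day 7 libraries overlapped the control, and the log2 change was -0.32 ± 0.35 (edgeR adjusted p = 0.541). Prodh2 rose by 1.66 ± 0.29 from day 7 to day 11 (edgeR adjusted p = 0.000509), a change that missed the threshold after thinning to 500 UMIs (1.04, adjusted p = 0.0975) and was 1.02 with gate totals. Straight barcodes held 8 Prodh2 UMIs in the control, 0 on day 1 and on day 2, 54 on day 4, 1 and 2 on day 7, 66 and 26 on day 11, then 19 and 36 on day 14. For these counts of 0 the exact Poisson 95% intervals reach up to 18.9 CPM on day 1 and 23.8 CPM on day 2. Endothelial barcodes held 0 to 21.1 CPM of Prodh2 on at most 6 UMIs, so the straight level was not clearly above theirs. The straight rise from day 7 to day 11 passed the test (edgeR adjusted p = 0.0233), at a ratio of 9.47 with a 95% counting interval of 3.14 to 46.7. It was lost without the second day 7 library (adjusted p = 0.388), without the first day 11 library (0.134), with DESeq2 (0.0767), with gate totals (0.0787) and with gates lacking Slc4a4 and Atp11a (0.0593).

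**Figure D2:**
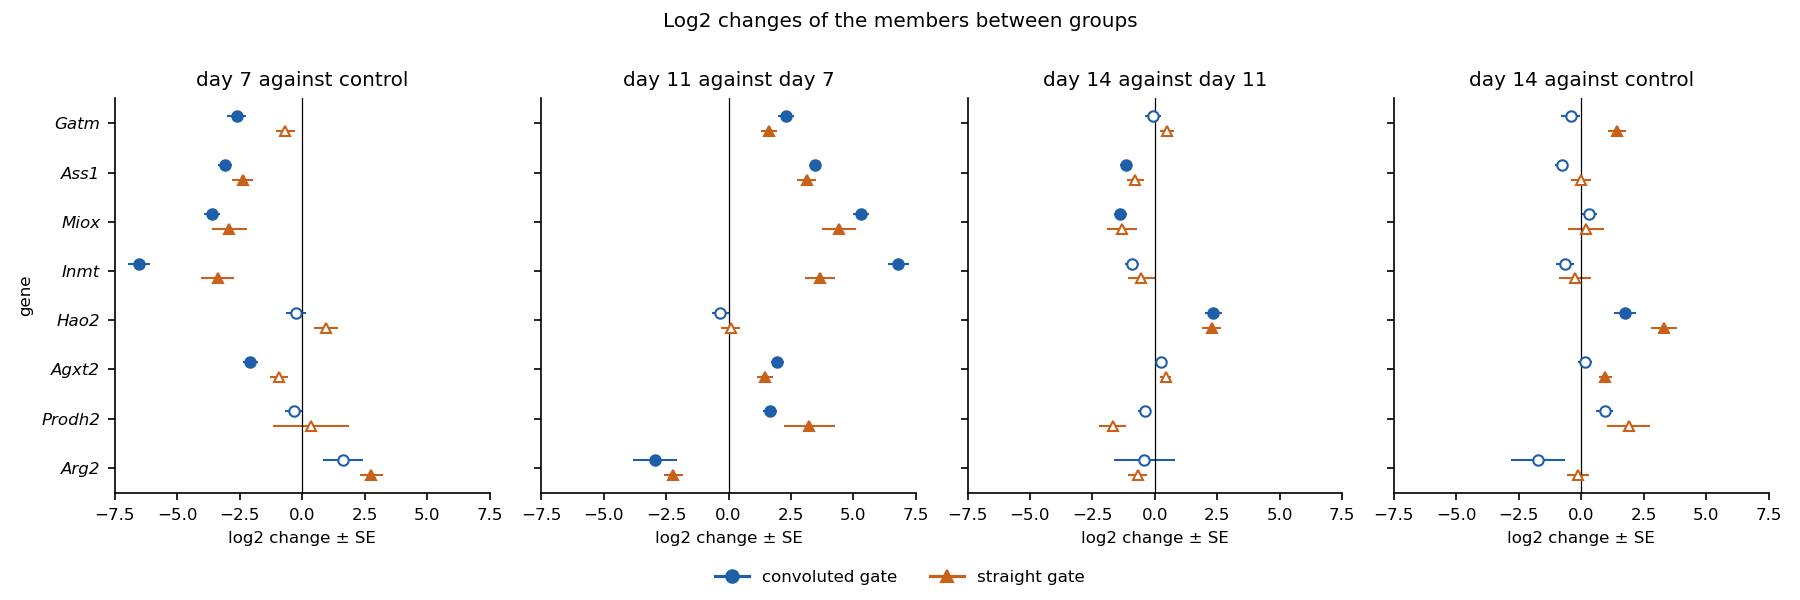
Log2 changes ± SE of the 8 genes between groups from edgeR with TMM scaling, for convoluted (circles) and straight (triangles) barcodes, in 4 panels with 1 comparison each. Filled symbols passed an adjusted p of 0.05. Inmt and Miox lie farthest left on day 7 against control in convoluted barcodes, at -6.53 and -3.61, and Hao2 is the member filled in both segments on day 14 against day 11 and against control.

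Counted over the list, 5 of the 8 genes were lower on day 7 than in the control in convoluted barcodes (Gatm, Ass1, Miox, Inmt and Agxt2) and none was called higher, where 27.8% of all genes were called, 14.7% lower and 13.1% higher. In straight barcodes 3 were lower (Ass1, Miox and Inmt) and Arg2 was higher, with 33.8% of all genes called, 16.5% lower and 17.4% higher. On day 11 against day 7, 6 rose and Arg2 fell in both segments, against 30.4% of all genes called in convoluted (16.0% higher, 14.3% lower) and 34.3% in straight barcodes (17.2% higher, 17.1% lower). Between days 11 and 14 there were 3 calls in convoluted barcodes, Hao2 higher and Ass1 and Miox lower, with 5.25% of all genes called (1.75% higher, 3.50% lower). In straight barcodes Hao2 was the 1 call, with 9.12% called (3.28% higher, 5.84% lower). Against the control, Hao2 was the 1 call of day 14 in convoluted barcodes, with 3.17% of genes called (1.26% higher, 1.92% lower). Gatm, Hao2 and Agxt2 were the 3 calls in straight barcodes, all higher, with 8.26% called (3.38% higher, 4.88% lower). The comparisons share the day 7, day 11, day 14 and control libraries with each other, so they are not separate evidence.

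Single libraries of the early days differed in which genes were low. On day 1 the convoluted 95% counting intervals were 623 to 688 CPM for Gatm, 97.2 to 124 for Miox and 1.98 to 7.61 for Inmt. On day 2 they were 1887 to 1949.9 for Gatm, 2299.8 to 2369 for Miox and 21.3 to 28.5 for Inmt. The day 2 library thus held Gatm and Miox near their control levels beside a low Inmt, while its injured tubule genes summed to 2076 CPM. These intervals cover counting error only, and each of these days is 1 library. On day 4, barcodes were split by whether they held any UMI of the injured tubule list. The 82 convoluted barcodes without one had 1515 CPM of Gatm, 1579 of Miox and 25.6 of Inmt, and the 1303 with one had 872, 830.0 and 21.0. Inmt was low in both sets, with 4 UMIs in the smaller. A deeper barcode is more likely to hold such a UMI, so the sets may also differ in depth, and the part of depth was not tested. On day 7, 366 of 370 and 390 of 401 convoluted barcodes held such a UMI, which leaves too few without one to compare.

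Segments were compared within libraries, with the library as a block and 14179 genes tested. Straight barcodes had less Gatm, Ass1, Agxt2 and Prodh2 than convoluted ones and more Inmt and Arg2, 6 calls among the 8 genes where 23.4% of all genes were called (11.2% higher, 12.1% lower). The straight level of Gatm was 0.0472 of the convoluted one in the control and between 0.0726 and 0.468 in the other libraries. Its log2 difference was -2.82 ± 0.22, that of Prodh2 was -3.76 ± 0.24, and those of Ass1 and Agxt2 were -0.79 ± 0.17 and -0.81 ± 0.15 (edgeR adjusted p = 1.14e-08, 5.42e-10, 0.00182 and 0.000524). Arg2 was higher in straight barcodes by 2.46 ± 0.25 and Inmt by 1.68 ± 0.28 (edgeR adjusted p = 4.73e-07 and 0.000176). Miox differed by -0.30 ± 0.21 and Hao2 by -0.02 ± 0.25 (adjusted p = 0.346 and 0.967). The Hao2 value averages libraries of both directions. Straight barcodes had less Hao2 than convoluted ones in the control (ratio 0.41), the day 1 library (0.54) and the day 2 library (0.26). The first day 7 library also had less (0.46). The second day 7 library (2.09) and all libraries of days 4, 11 and 14 (1.22 to 1.85) had more. All 6 calls were kept in the 17 alternative settings run for this comparison, with Inmt at 0.99 after thinning.

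**Figure D3:**
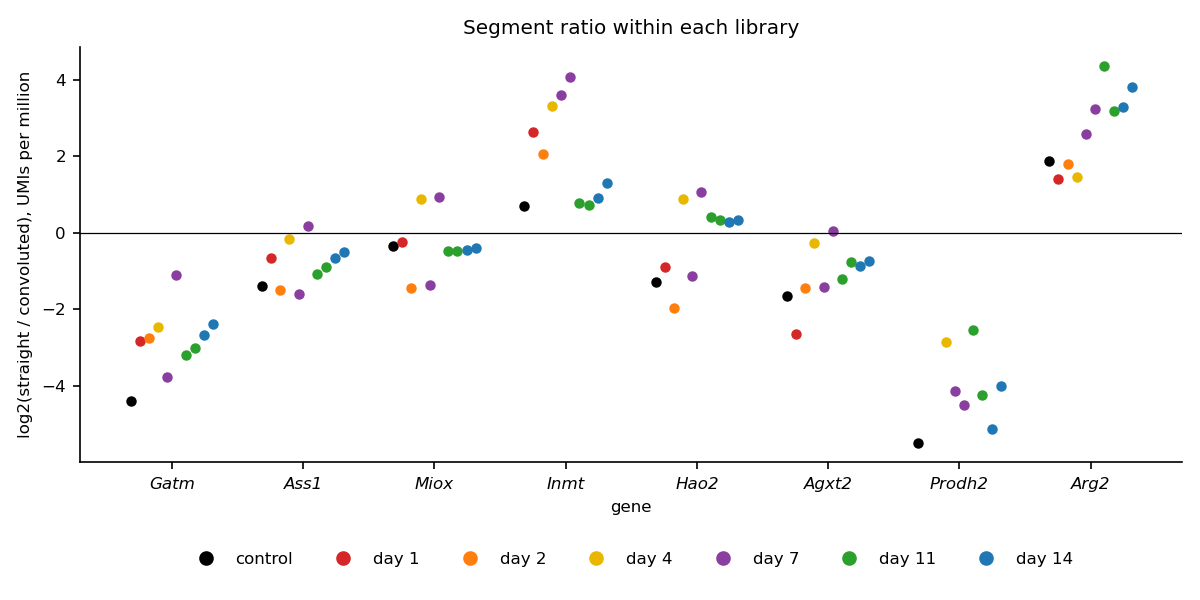
Log2 ratio of the straight to the convoluted level (in CPM) within each library, with 1 point per library coloured by day. Prodh2 has no point for days 1 and 2, where straight barcodes held 0 UMIs. Gatm and Prodh2 lie below 0 and Inmt and Arg2 above 0 in every library drawn. The Inmt point of the first day 7 library rests on 3 straight and 1 convoluted UMIs.

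Whether a change differed between segments was tested as an interaction of day and segment. The change on day 7 against control differed for Gatm, by 2.13 ± 0.45 (straight minus convoluted, log2), and for Inmt, by 3.12 ± 0.43, 2 of the 8 genes where 4.09% of all genes were called, 1.94% higher and 2.15% lower (edgeR adjusted p = 0.00170 and 9.75e-07). The change of Inmt on day 11 against day 7 differed by -3.14 ± 0.39 (adjusted p = 2.38e-07), the 1 call where 1.88% of genes were called (1.06% higher, 0.818% lower). No member was called on day 14 against day 11, where 33 genes (0.233%, with 0.0353% higher and 0.197% lower) were called by edgeR, 889 had an unadjusted p under 0.05 and DESeq2 called 3. With gate totals the share of called genes that were higher went from 47.4% to 76.6% on day 7 against control and from 56.6% to 28.1% on day 11 against day 7. The Gatm difference rested on the second day 7 library and on straight levels near the endothelial ones. Without it, it was 0.18 (adjusted p = 0.916), without the first day 7 library 3.09, and without the first or second day 11 library 2.04 with adjusted p of 0.227 and 0.245. Without the second day 7 library the Inmt differences were 2.39 and -2.41 (adjusted p = 0.422 and 0.506), with 1 convoluted and 3 straight UMIs left on day 7.

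The share of barcodes with at least 1 UMI was read for Miox and Inmt after thinning each barcode to 500 UMIs. Miox was found in 59.7% of convoluted barcodes in the control, 11.6% and 17.7% on day 7, 94.7% and 93.3% on day 11, then 64.6% and 74.2% on day 14. Unthinned, these were 88.1%, 30.0% and 37.7%, 98.5% and 98.6%, and 89.3% and 93.6%. Thinned endothelial barcodes, a cell type not known for Miox, held it in 8.58% in the control, 26.8% and 26.6% on day 11, and 1.40% in the second day 7 library. The first day 7 library had none after thinning and 2 Miox UMIs before it. Their Miox level moved with the proximal one and was 5.83% to 15.1% of it over the 10 libraries. Other members had other shares in endothelial barcodes, 7.52% to 17.1% of the convoluted level for Gatm and 0% to 29.5% for Inmt. Inmt was found in 21.2% of thinned convoluted barcodes in the control, 0.270% and 0.998% on day 7, and 27.5% and 29.5% on day 11. In thinned endothelial barcodes Inmt was found in 2.61% in the control and 2.01% and 5.80% on day 11, and in none on day 7. Unthinned, the second day 7 library had 2 endothelial Inmt UMIs, 4.56 CPM against 15.4 in convoluted barcodes, and the first had none. Median depths before thinning were 1751 UMIs in convoluted and 1458 in endothelial barcodes of the control.

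Gatm and Arg2 were also read at length outside the proximal gates, where no test between gates was run. Gatm in macrophage barcodes was at 621 CPM in the control, 1128 on day 1, 697 and 741 on day 7, 538 and 480.1 on day 11, then 731 and 818 on day 14. It did not follow the fall of the convoluted level on day 7, and the macrophage value was 28.4% to 242% of the convoluted one over the libraries. In endothelial barcodes Gatm was between 52.4 and 215 CPM, a range that holds the straight levels of the control and of days 7 and 11, and in thick limb barcodes between 9.07 and 73.1 CPM. The macrophage gate held 38 barcodes in the control and 695 and 1249 on day 7.

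Arg2 was higher in thick limb than in convoluted or straight barcodes of every library, so it was not particular to the proximal gates. Its thick limb level was 18.6 CPM in the control and 53.1 on day 1, 98.8 on day 2 and 121 on day 4. It was 80.0 and 129 CPM on day 7, 74.4 and 53.2 on day 11, then 16.4 and 20.1 on day 14. All 10 thick limb values were above the convoluted value of the same library, and straight barcodes were at 41.0 and 105 CPM on day 7. In endothelial barcodes Arg2 was at 0 to 15.9 CPM, on at most 7 UMIs, and on day 7 at 14.4 and 15.9 CPM against 6.80 and 11.2 in convoluted barcodes. Hao2 in thick limb barcodes was at 60.0 CPM in the control and 152 and 177 on day 14.

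**Figure D4:**
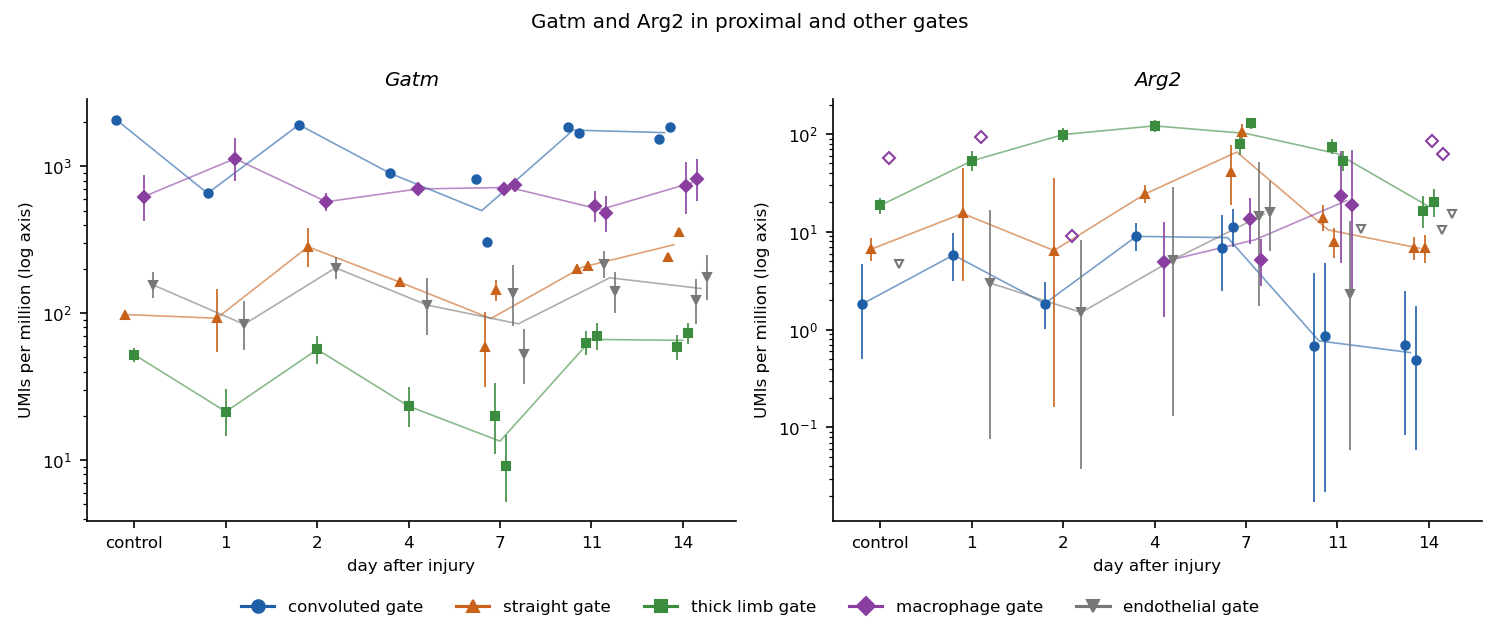
Levels of Gatm and Arg2 in CPM (log axis) by day, with 1 point per library for convoluted, straight, thick limb, macrophage and endothelial barcodes. Bars are exact Poisson 95% intervals and open symbols mark a count of 0 drawn at the level of 3 counts. Macrophage Gatm stays between 480.1 and 1128 CPM, and thick limb Arg2 lies above convoluted Arg2 in every library.

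Genes of the same routes were read from 5 lists. Of the glyoxylate, glycine and hydroxyproline list, 15 of 19 genes were tested, and on day 7 against control 11 fell in convoluted and 12 in straight barcodes, with none higher. Over all genes 14.7% and 16.5% were called lower. Its median log2 change was -1.38 and -1.73, against 0.10 and 0.07 over all genes. In convoluted barcodes Dmgdh (dimethylglycine dehydrogenase) fell by 5.23 ± 0.54, Bhmt2 (a methyltransferase that makes methionine) by 3.95 ± 0.43 and Gldc (the decarboxylase of the glycine cleavage system) by 2.61 ± 0.42, all called by edgeR. Grhpr, which reduces glyoxylate, fell by 1.71 ± 0.26 in convoluted and 1.81 ± 0.40 in straight barcodes. Hoga1, the aldolase of the hydroxyproline route downstream of Prodh2, changed by -0.15 ± 0.29 in convoluted barcodes (edgeR adjusted p = 0.739) and fell by 1.02 ± 0.38 in straight ones (adjusted p = 0.0497). By day 11, 13 and 12 genes of the list had risen against day 7 and none had fallen, where 16.0% and 17.2% of all genes were called higher. Neither segment had a call in this list on day 14 against day 11 or against control. Of all genes 5.25% (convoluted) and 9.12% (straight) were called in the first of these comparisons, and 3.17% and 8.26% in the second.

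In the inositol and glucuronate list 10 of 12 genes were tested. On day 7 against control 6 fell and 2 rose in convoluted barcodes, and 5 fell and 2 rose in straight ones, where 27.8% (14.7% lower) and 33.8% (16.5% lower) of all genes were called. The median was -1.34 and -1.05 against 0.10 and 0.07 over all genes. Those that fell in convoluted barcodes included Dcxr, the L-xylulose reductase (-2.39 ± 0.24), Akr1a1, an aldehyde reductase (-1.68 ± 0.24), and Slc5a11, an inositol transporter (-1.62 ± 0.37). Downstream of Miox, Cryl1 changed by -1.60 ± 0.25 and the xylulokinase Xylb by -1.22 ± 0.26 there, both called. Isyna1, which makes inositol phosphate, rose by 1.57 ± 0.50 in convoluted and 2.87 ± 0.46 in straight barcodes. Impa2, an inositol monophosphatase, had 0 UMIs in the convoluted control and 18 on day 7, at least 2.93-fold higher against 3 control counts. On day 14 Xylb was called above the control, by 1.10 ± 0.27 in convoluted and 1.30 ± 0.30 in straight barcodes (edgeR adjusted p = 0.0406 and 0.0194).

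The arginine and creatine list held 13 tested genes of 16, with 3 lower and 1 higher in convoluted and 2 lower and 3 higher in straight barcodes on day 7 against control. These counts are near the shares over all genes, 27.8% and 33.8%, and the median was -0.35 and -0.24. Odc1, which makes putrescine from ornithine, fell by 3.96 ± 0.27 and 5.01 ± 0.41, and in convoluted barcodes Sms (spermine synthase) fell by 1.94 ± 0.28 and Ddah1 by 1.19 ± 0.22. Ddah2, like Ddah1 a hydrolase of dimethylarginine, rose by 3.42 ± 0.58 and 6.33 ± 0.49. The partner enzymes of Ass1 and Gatm did not pass the test in convoluted barcodes, with -0.42 ± 0.33 for Asl, which cleaves argininosuccinate, and -0.41 ± 0.39 for Gamt, which completes creatine (edgeR adjusted p = 0.360 and 0.463). Oat, which uses the ornithine that arginase makes, rose by 2.55 ± 0.37 in straight barcodes (edgeR adjusted p = 0.000151), where Arg2 rose, and was at -0.39 ± 0.30 in convoluted ones (adjusted p = 0.350). On day 14 Odc1 was still lower than in the control in both segments, at -1.31 ± 0.26 and -1.79 ± 0.37 (edgeR adjusted p = 0.0163 and 0.00999). Gamt was higher in straight barcodes by 1.78 ± 0.30 (edgeR adjusted p = 0.00358). Gatm was also called higher there, but that call was lost in several alternatives, and the Gatm change was -0.09 after thinning.

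In the proline and glutamate list 12 of 13 genes were tested, and 5 fell in each segment on day 7 against control, where 14.7% and 16.5% of all genes were called lower. Prodh, the proline oxidase related to Prodh2, fell by 2.23 ± 0.26 and 2.28 ± 0.33, and Aldh4a1, which acts after both oxidases, by 2.16 ± 0.27 and 2.09 ± 0.35. Gpt fell in convoluted barcodes by 1.66 ± 0.45 and its relative Gpt2 rose there by 1.09 ± 0.34. In the methyl transfer list 10 of 11 genes were tested, with 4 lower and 1 higher in convoluted and 2 lower and 1 higher in straight barcodes, and medians of -0.30 and -0.32. Of all genes 27.8% and 33.8% were called, and the straight count is near that share. Gnmt fell by 3.63 ± 0.63, Mtr by 2.79 ± 0.74 and Ahcy, which removes the S-adenosylhomocysteine that methyl transfer leaves, by 2.06 ± 0.28 in convoluted barcodes. Nnmt, a nicotinamide methyltransferase, had 0 UMIs in the convoluted control and 29 on day 7, at least 4.72-fold higher against 3 control counts. All these changes were called by edgeR.

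Genes most like each member were ranked by Pearson's r of log2(CPM + 10) over the 10 convoluted sums, among 3215 genes with a mean of at least 50 CPM. The points share libraries and depth, so r is a description. The first gene was Gm5424 for Gatm (0.974), Dhrs4 for Ass1 (0.976), Akr7a5 for Miox (0.988), Acsm3 for Inmt (0.979), Pbld1 for Agxt2 (0.975), with Amn for Prodh2 and Apex1 for Arg2. For Hao2 it was Mogat1, at 0.884 the lowest first value of the 8. Next in rank were Tmem174 and Ugt2b38 for Gatm, Scp2 and Gm5424 for Ass1, Ces1d and Etfa for Miox, and Mien1 and Dnajc12 for Inmt. The same ranks were held by Nr3c1 and Dab2 for Hao2, by Car14 and Tmem174 for Agxt2, Ndufa6 and Msra for Prodh2, and Cdc42se1 and Cttn for Arg2. Acsm3 fell by 6.21 ± 0.49 in convoluted and 4.15 ± 0.62 in straight barcodes on day 7 against control (edgeR adjusted p = 9.65e-07 and 0.000190). Among the members themselves, r in convoluted barcodes was 0.923 for Ass1 and Miox and 0.896 for Miox and Inmt. It was between -0.039 and 0.424 for Hao2 with the 6 others that were not Arg2, and -0.966 for Arg2 with Agxt2. Convoluted Arg2 lay between 0.488 and 11.2 CPM, around or below the added 10 CPM and under the 50 CPM asked of ranked genes. Every r with Arg2, its ranked genes included, thus rests on very low counts.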

How the data were processed

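Drop-seq libraries of mouse kidney cortex were deposited as 1 table each of whole-number counts per gene and barcode, taken as UMI counts from the values and the labels' protocol, since the tables do not name the unit. The authors' alignment used Bowtie2 2.2.7 and mm10, per the submitters' processing notes, and other steps are not given in the sources used here. Libraries held 7091848 to 31632205 UMIs. A barcode was used if it had 500 or more UMIs and 500 or more genes, with no more than 50% of its UMIs mitochondrial. No doublet caller was run. Convoluted barcodes had at least 2 UMIs of Slc5a2, Slc5a12, Slc4a4, Slc7a7, Slc7a8 and Slc6a19 and at least 2 times those of the straight list (Slc7a13, Slc22a7, Slc22a13, Slc22a19, Slc6a18, Cyp7b1, Atp11a and Slco1a6), and straight barcodes the reverse. Of proximal barcodes 2771 with markers of another class were left out. Counts were summed per library and segment and tested with edgeR 4.0.16 in R 4.3.3 (filterByExpr, TMM, 7 group terms, 10 libraries). Segments were compared with a library block. DESeq2 1.42.0, other gates, filters and scalings and leaving out libraries were alternatives. On simulated counts for day 11 against day 7 in convoluted barcodes (11557 genes), 61% of genes changed 2-fold and 100% of those changed 4-fold were recovered. Replicates differed by more than sampling noise (chi-square per degree of freedom 3.98 to 13.3).

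The members and lists were chosen with earlier results of these data known. All 8 members are named. From each list, up to 3 genes per direction with the largest called change on day 7 against control are named, with genes on a member's route, and the 3 genes most like each member by Pearson's r. Some list genes are not reported here. Counting intervals are exact Poisson 95% intervals and cover counting error only.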

Additional observations from a re-analysis of the deposited data

Results flagged for a closer look

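The change of Gatm on day 7 against control differed between straight and convoluted barcodes by 2.13 on the log2 scale, by edgeR's test of the interaction of day and segment. The difference was 1.96 with DESeq2 (adjusted p = 0.727), 1.04 with no barcode left out for markers of other classes (adjusted p = 0.160) and 0.10 after thinning to 500 UMIs.

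The change of Inmt on day 7 against control differed between the segments by 3.12, and that on day 11 against day 7 by -3.14, by the same test in edgeR. After thinning to 500 UMIs these were 1.70 and -1.22 (adjusted p = 0.836 and 0.784), on convoluted day 7 sums of only 88000 and 78000 UMIs.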

How the results depend on the processing

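Over 1273 values of single members under alternatives, 1138 kept their direction and side of the threshold, 50 passed it newly, 46 no longer passed and 39 changed sign. In convoluted barcodes Gatm, Ass1, Miox, Inmt and Agxt2 were called lower on day 7 than in the control in all 18 alternatives. The control and days 1, 2 and 4 have 1 library each, and straight barcodes were few on days 1, 2 and 7, which limits all straight values there. The gates without Slc4a4 and Atp11a and the fits without days 1 and 2 were chosen after seeing the data.

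Counts of called members moved as follows. They are given without the share of all genes called in the same setting, so a count may move with that share. Leaving out 1 library gave 0 to 4 (convoluted) on day 14 against day 11, where 3 were called, and 0 to 4 on day 14 against control, where 1 was called. The latter was 2 with no filter, no exclusion by other markers or thinning, 4 with only the compared groups, and 0 with DESeq2, a gate of 3 UMIs or the gates without Slc4a4 and Atp11a. In straight barcodes on day 7 against control, where 4 were called, DESeq2 gave 2, and no filter, no exclusion or the gates without Slc4a4 and Atp11a each gave 6, and thinning gave 3 in place of 7 on day 11 against day 7. On day 14 against day 11, where 1 was called, there were 3 with no filter, thinning or only the compared groups, 2 with a gate of 3 UMIs or the gates without Slc4a4 and Atp11a, and 1 to 3 with 1 library left out. On day 14 against control, where 3 were called, there was 1 with DESeq2 or thinning, and 1 to 3 with 1 library left out. For the day-by-segment difference on day 7 against control, where 2 were called, there were 5 with gate totals, 4 with a gate of 3 UMIs or the gates without Slc4a4 and Atp11a, 1 with DESeq2 or no exclusion, 0 with thinning, and 1 to 6 with 1 library left out. On day 11 against day 7, where 1 was called, there were 2 with gate totals or a gate of 3 UMIs, 0 with thinning, and 1 to 4 with 1 library left out. On day 14 against day 11, where 0 were called, there was 1 with gate totals, a gate of 3 UMIs or the gates without Slc4a4 and Atp11a, and 0 to 3 with 1 library left out. Calls over all genes ranged more widely, for example 773 to 4897 in convoluted barcodes on day 7 against control (3460 in the fit reported) and 391 to 6383 in straight ones (4501). DESeq2 called 1938 and 2402 of these, 2429 and 2746 on day 11 against day 7 (3772 and 4565 in the fit reported), 428 and 441 on day 14 against day 11 (653 and 1214), and 191 and 197 on day 14 against control (394 and 1099). For the day-by-segment differences it called 98, 41 and 3 (580, 267 and 33). The causes were not tested.

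Changes of sign were all of values that did not pass the test as reported, except that of Gatm on day 14 against control in straight barcodes, at -0.0885 after thinning. In convoluted barcodes on day 7 against control, Hao2 was at 0.47 with gate totals, 0.0806 with no exclusion, 0.51 with thinning and -0.85 and 0.19 without the first and second day 7 library, and Prodh2 at 0.41 with gate totals, 1.0003 with thinning and -0.79 and 0.13 without the same libraries. Hao2 on day 11 against day 7 was at 0.26 and -0.78 without the first and second day 7 library. Gatm on day 14 against day 11 was at 0.0167 and 0.0548 without the first library of day 11 or of day 14 and at -0.25 without the second of day 14, and on day 14 against control at 0.0049 with no exclusion. Without the second day 14 library Miox was at -0.0382 (0.59 without the first) and Agxt2 at -0.0086 on day 14 against control. In straight barcodes on day 7 against control, Gatm was at 0.24 with gate totals and Prodh2 at -0.53 with no exclusion. Hao2 on day 11 against day 7 was at -0.70 with gate totals, -0.13 with a gate of 3 UMIs, -0.98 with thinning, -0.27 and 0.89 without the first and second day 7 library and -0.52 with the gates without Slc4a4 and Atp11a. On day 14 against control Ass1 was at 0.15 with gate totals, 0.0160 with no filter, 0.0275 with a gate of 3 UMIs, 0.0040 with no exclusion, 0.0017 without the second day 7 library, 0.0018 without the second day 11 library and 0.23 without the first day 14 library. There Miox was at -0.13 without the second day 14 library, Inmt at 0.0084 and -0.54 without the first and the second, and Arg2 at 0.0335 with gate totals and 0.29 with at most 25% mitochondrial UMIs. The segment difference of Hao2 was 0.0024 with RLE size factors, 0.0016 with no filter, 0.0215 with a gate of 3 UMIs, 0.36 with thinning, 0.12 and -0.14 without the first and second day 7 library, 0.16 with the gates without Slc4a4 and Atp11a and 0.23 without days 1 and 2.

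Libraries of days 7, 11 and 14 share replicate numbers. Deviations of same-numbered libraries correlated at 0.073, 0.014 and -0.001 in convoluted and at 0.189, 0.004 and -0.003 in straight barcodes. These correlations cannot show whether libraries shared a preparation or run that does not follow the replicate number. With the replicate block 5, 7, 4 and 1 members were called in convoluted and 5, 7, 1 and 3 in straight barcodes, in the order day 7 against control, day 11 against day 7, day 14 against day 11 and day 14 against control. The block added Inmt on day 14 against day 11 in convoluted barcodes (-0.92, adjusted p = 0.0301) and Agxt2 on day 7 against control in straight ones (-1.06, adjusted p = 0.0252). Over all genes it called 902 and 669 on day 14 against day 11 and against control in convoluted barcodes. Its calls over all genes in the other comparisons are not reported here, so those member counts have no background beside them.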
